A study of Mus musculus with 48 samples.

Results

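The left ventricle of middle-aged mice (48 weeks) was compared with that of young adult mice (8 weeks) in hearts that had not been made ischaemic. The comparison is between 12 of the 48 arrays of the series, namely 6 normoxic hearts at 48 weeks and 6 normoxic hearts at 8 weeks. Hearts were grouped by their labels, and all 48 arrays entered the estimate of the spread per gene. All mice were male C57BL/6, group housed until the age at which the heart was taken. Under pentobarbital anaesthesia each heart was excised, perfused in Langendorff mode (retrogradely through the aorta, outside the body) and stabilised for 20 min. Normoxic hearts were then perfused with oxygen supply maintained for as long as the other hearts underwent 25 min of global ischaemia and 45 min of reperfusion (I/R). The 48-week and 8-week I/R hearts, again 6 each, came from other animals and served as a second look at age. Normoxic hearts of 16 and 32 weeks, 6 each, are given for the levels in between. Every heart, also the normoxic ones, had thus been through anaesthesia, excision and ex vivo perfusion before its RNA was taken. The RNA of each heart was hybridised to 1 Illumina bead array for mouse transcripts, and 9811 genes were detected and tested.

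No difference in mean array quality was found between the normoxic groups, which with 6 hearts a group does not show equal quality. The number of detected probes was more spread at 48 weeks (SD 607) than at 8 weeks (SD 116). The RNA integrity number (RIN, higher for more intact RNA) was 8.30 ± 0.126 at 48 weeks and 8.52 ± 0.299 at 8 weeks (SD, n = 6 each, two-sided exact permutation p = 0.171). Between 13362 and 15080 probes were detected per array at 48 weeks, and between 14046 and 14321 at 8 weeks (two-sided exact permutation p = 0.578). The correlation between arrays over all genes was 0.986 to 0.989 within the 48-week group, 0.983 to 0.992 within the 8-week group and 0.980 to 0.988 between them. The labels and headers name no slide and no date for the arrays, so a batch that follows age cannot be told apart from age. The number of arrays, 6 per group, limits the precision.

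The ventricle is mostly cardiomyocyte by volume, while endothelial cells, fibroblasts, mural cells and macrophages make up most of its cell number. The heart burns fatty acids and ketone bodies in its mitochondria, fires through a sequence of sodium, calcium and potassium currents, and is held together by a matrix of fibrillar and basement membrane collagens made mainly by fibroblasts and vascular cells. Between 8 weeks and midlife the mouse heart leaves its postnatal growth phase. Ageing of the heart is known for low-grade inflammation, slower turnover of matrix and greater oxidative load.

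Few of the genes tested passed the threshold between 48 and 8 weeks. Of 9811 genes, 162 were past the threshold (limma, Benjamini-Hochberg adjusted p under 0.05), which is 1.65% of those tested. Of these, 89 were higher at 48 weeks (0.907%) and 73 were lower (0.744%). The gene lists below were chosen with earlier results of these data known, so their counts are descriptions, to be read beside these shares. At an unadjusted p under 0.05 there were 1009 genes. Over all genes tested, the log2 fold change had a median of −0.0036, and single genes ranged between −2.21 and 1.83. Increases were the larger changes, with 25 genes at least 2-fold higher and 6 genes at least 2-fold lower, while 80 of the 162 differed by less than 1.5-fold. In 98 of the 162 genes the 6 hearts of 48 weeks did not overlap with the 6 of 8 weeks, as was so for 186 of all genes (1.9%). In 160 of the 162 every 48-week heart lay on the same side of the 8-week mean, and in the other 2 genes 5 of 6 did. The genes were called on these same hearts, so both counts describe the calls and are no separate support. A second, dimmer probe was detected for 44 of the 162. It had the same sign in 36 of these and was past the threshold in the same direction in 9. With each array centred on the median of all its probes in place of quantile normalization, 107 genes were higher and 35 lower, which is 75.4% higher calls against 54.9%. Sizes depended on the background correction. The 20 largest increases among genes detected in all hearts of a group had a median log2 fold change of 1.47, against 0.76 without background correction and 0.62 in the authors' processed values, and the 20 largest decreases had −0.74, against −0.53 and −0.49.

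**Figure D1:**
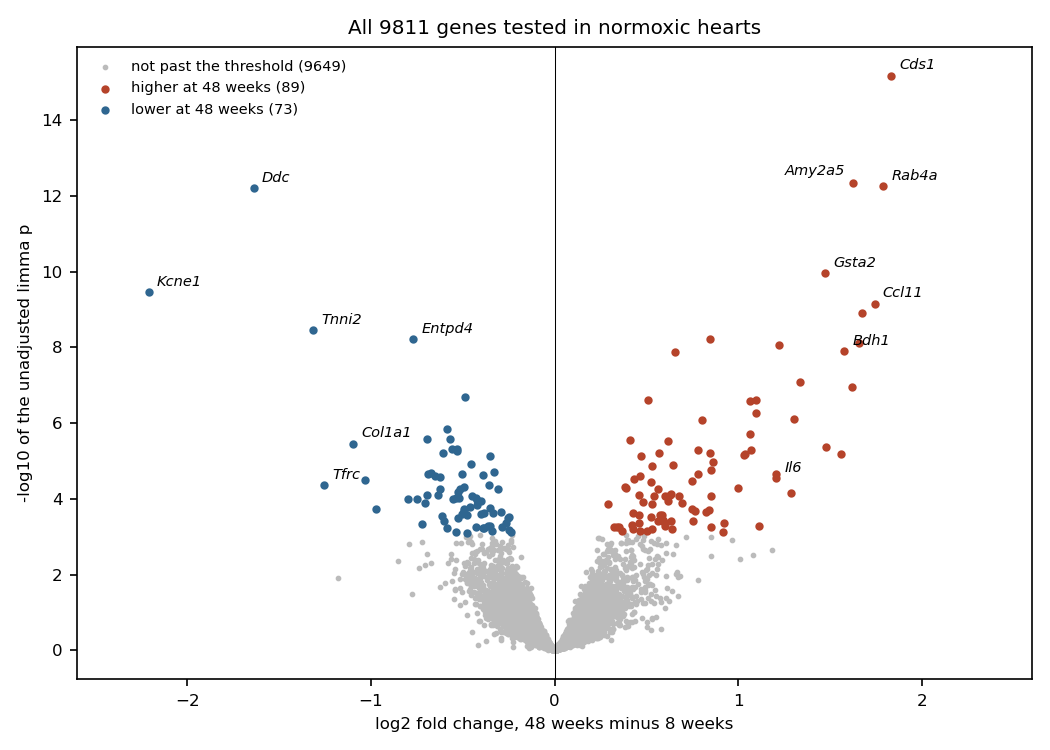
Each point is 1 of 9811 genes, with its log2 fold change (48 weeks minus 8 weeks, normoxic hearts) on the horizontal axis and −log10 of the unadjusted limma p on the vertical axis. The 89 genes higher at 48 weeks reach 1.83 (Cds1), and the 73 lower genes reach −2.21 (Kcne1).

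The largest increase was in a gene of phospholipid synthesis. Cds1, the enzyme that makes CDP-diacylglycerol for phosphatidylinositol and cardiolipin, had normalized log2 intensities of 8.30, 8.51 and 8.52 (lowest, median and highest heart) at 48 weeks, against 6.24, 6.58 and 7.27 at 8 weeks. The lowest heart of 48 weeks was above the highest of 8 weeks. Cds1 was 3.56-fold higher, with a log2 fold change of 1.83 ± 0.149 (SE, 6 hearts a group, adjusted p = 6.58e-12). It was the only called gene among 33 tested genes of phospholipid, triglyceride and sphingolipid synthesis, whose median log2 fold change was −0.02. Cds2, which catalyses the same step, gave 0.42 (adjusted p = 0.342).

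Of 42 tested endosomal and endocytic genes 3 were higher and none was lower, against 0.907% of all genes higher. The list median was 0.01. This list, like the others, was chosen with earlier results of these data known. Rab4a, a small GTPase that returns endocytosed membrane proteins to the surface, lay at 8.19, 8.43 and 8.62 at 48 weeks, against 6.32, 6.68 and 6.88 at 8 weeks. The groups were far apart, and Rab4a was 3.46-fold higher (log2 fold change 1.79 ± 0.179, adjusted p = 1.51e-09). Sh3gl2, endophilin A1, which bends the membrane of endocytic vesicles, was 3.07-fold higher (1.62 ± 0.256, adjusted p = 6.28e-05). Its 48-week hearts lay between 7.04 and 8.31, and its 8-week hearts between 6.11 and 6.84. Wdfy1, a protein that binds the phosphoinositide of early endosomes, was 2.78-fold higher (1.48 ± 0.282, adjusted p = 0.00134), with 48-week hearts between 6.33 and 7.90 and 8-week hearts between 5.76 and 6.18. Rab5a and Rab7, which mark early and late endosomes, gave −0.30 and −0.13 (adjusted p = 0.649 and 0.667).

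Bdh1, Abat and Acsm5, which encode mitochondrial enzymes, were among the 20 largest increases. Bdh1, which interconverts the ketone bodies β-hydroxybutyrate and acetoacetate, lay at 9.92, 10.55 and 11.21 at 48 weeks, against 8.41, 8.89 and 9.50 at 8 weeks. All 6 hearts of 48 weeks exceeded all 6 of 8 weeks, and the gene was 2.99-fold higher (1.58 ± 0.227, adjusted p = 8.76e-06). A dimmer probe of Bdh1 did not show this and gave −0.12 (adjusted p = 0.959). Abat, the transaminase that degrades the transmitter GABA, was 2.95-fold higher (1.56 ± 0.306, adjusted p = 0.00154). Acsm5, a medium-chain acyl-CoA synthetase, was 2.33-fold higher (1.22 ± 0.173, adjusted p = 6.58e-06). Bdh1 was the only called gene among 36 tested genes of fatty acid uptake, oxidation and ketone use (list median 0.10). Cpt1b, the gate of long-chain fatty acid entry into mitochondria, gave 0.20 (adjusted p = 0.225).

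Genes named for exocrine glands were also higher. Amy2a5, which encodes pancreatic α-amylase, lay at 9.41, 9.68 and 9.90 at 48 weeks, against 7.87, 8.06 and 8.21 at 8 weeks. It was 3.09-fold higher without overlap (1.63 ± 0.161, adjusted p = 1.51e-09). Amy1, the salivary amylase gene, was 2.52-fold higher (1.33 ± 0.209, adjusted p = 5.16e-05, detected in all 6 hearts at 48 weeks and in 5 at 8 weeks). Klk1b26, a glandular kallikrein (a serine protease that releases small peptides), was 3.19-fold higher (1.68 ± 0.219, adjusted p = 1.55e-06), and its second probe gave 1.80 (adjusted p = 1.09e-05). Its probe was detected in all 6 hearts at 48 weeks and in 3 at 8 weeks. Amylase genes and kallikrein genes are families of near-identical copies, so signal of one member on the probe of another cannot be told apart here. Of the 16 exocrine gland markers listed, 5 were detected and 3 of these were higher, against 0.907% of all genes higher. Cela2a and Cel, a pancreatic elastase and the bile salt lipase, gave 0.25 and 0.02 (adjusted p = 0.678 and 0.995). The summed level of the 5 was 998 to 1442 intensity units at 48 weeks and 411 to 502 at 8 weeks. As a linear sum it is mostly the signal of Amy2a5 (mean log2 intensity 9.67 at 48 weeks and 8.04 at 8 weeks).

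**Figure D2:**
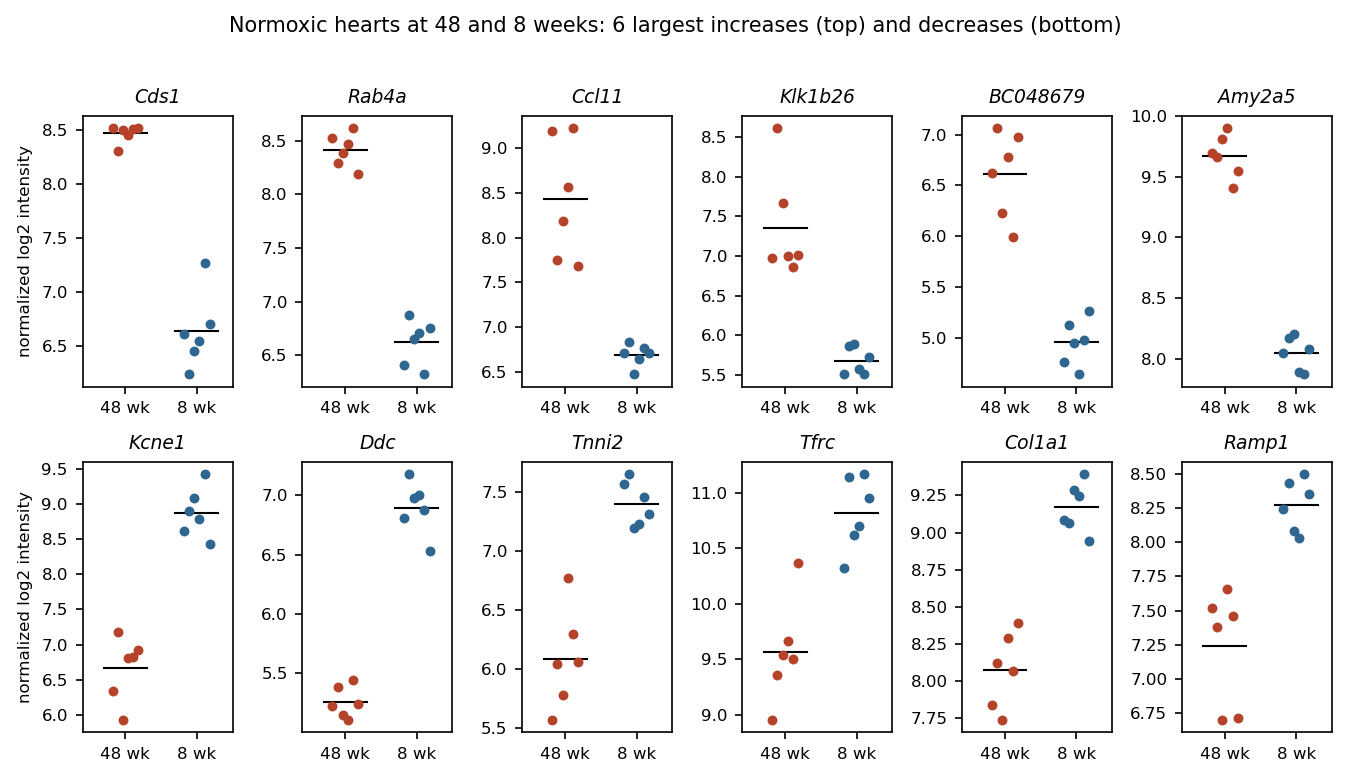
Normalized log2 intensity (vertical axes, one scale per gene) of each normoxic heart at 48 weeks (left in each panel) and 8 weeks (right), with the group mean as a bar, for the 6 largest increases (top) and the 6 largest decreases (bottom). The groups overlap only in Tfrc, where 1 heart of 48 weeks (10.37) lies above the lowest of 8 weeks (10.32).

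Inflammatory mediators formed the list with the most called genes. Of 29 tested cytokines, chemokines and adhesion molecules, 7 were higher at 48 weeks and none was lower, against 0.907% of all genes higher. The list median was 0.50 and lay between 0.36 and 0.55 under the other settings. Ccl11 (eotaxin), which draws eosinophils, lay at 7.69, 8.38 and 9.22 at 48 weeks, against 6.47, 6.71 and 6.84 at 8 weeks. The 8-week hearts were tightly grouped and the 48-week hearts were spread over more than 1 log2 unit, all of them above. Ccl11 was 3.35-fold higher (1.74 ± 0.223, adjusted p = 9.75e-07). Il6, the cytokine of the acute phase response, lay at 7.09, 7.38 and 8.02 at 48 weeks, against 5.47, 6.27 and 6.53 at 8 weeks. The gene was 2.30-fold higher (1.20 ± 0.258, adjusted p = 0.00458), but its adjusted p was 0.129 without background correction and 0.266 in the authors' processed values.

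Il33, an alarmin stored in the nuclei of stromal and endothelial cells, was 2.05-fold higher (1.04 ± 0.203, adjusted p = 0.00153). Its 48-week hearts lay between 7.88 and 8.49 and its 8-week hearts between 6.88 and 7.26. Cxcl14, a chemokine for monocytes and dendritic cells, gave 1.00 ± 0.223 (adjusted p = 0.00708), and its second probe gave 0.94 (adjusted p = 0.0125). Vcam1, the endothelial adhesion molecule for leukocytes, gave 0.85 ± 0.197 (adjusted p = 0.00975). That call was lost without replicate 1 of the 48-week hearts (adjusted p = 0.0532) and with the mean of its probes (adjusted p = 0.192). Ccl7, a monocyte chemokine, gave 0.85 ± 0.228 (adjusted p = 0.0375), and its call was lost in 10 of 12 fits that each left out 1 heart (highest adjusted p = 0.106, without replicate 1 of the 8-week hearts). Sele, E-selectin, was the other called member (0.91, adjusted p = 0.046, named after its value was seen). With 1 heart left out at a time, between 4 and 7 members were past the threshold.

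Regulators of NF-κB, the transcription factor that drives many of these mediators, did not pass. None of 18 tested members was called, the median was 0.12, and 4 had an unadjusted p under 0.05. Nfkbia, the inhibitor IκBα that NF-κB itself induces, lay at 6.56, 6.80 and 7.43 at 48 weeks, against 6.10, 6.30 and 6.42 at 8 weeks. The groups did not overlap, yet the adjusted p was 0.105 (log2 fold change 0.61). Markers of macrophages and monocytes had a median of −0.19, and none of the 12 tested was called. Their summed level was 3143 to 5008 at 48 weeks and 1989 to 6507 at 8 weeks. Few markers of neutrophils, T and NK cells, and B and plasma cells could be tested (1 of 10, 3 of 14 and 1 of 10). In these lists 9, 11 and 7 members had a probe, and those with a probe that were not tested were not detected.

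Of 33 immediate early genes, which are switched on within minutes of a stimulus, 3 were higher, against 0.907% of all genes (list median 0.10). Arc, a synaptic and stress-induced capsid-like protein, lay at 9.61, 10.01 and 10.39 at 48 weeks, against 8.38, 8.78 and 9.42 at 8 weeks, and was 2.30-fold higher without overlap (1.20 ± 0.254, adjusted p = 0.00397). The zinc finger transcription factors Egr2 and Egr1 gave 0.84 ± 0.206 (adjusted p = 0.0174) and 0.42 ± 0.115 (adjusted p = 0.0401), and both overlapped between the groups. Egr1 lost its call in 9 of 12 fits that left out 1 heart (highest adjusted p = 0.122, without replicate 5 of the 48-week hearts). Egr2 lost it in 4 (highest adjusted p = 0.0849, without the same heart). Fos and Junb, subunits of the AP-1 factor, gave 0.37 and 0.51 (adjusted p = 0.303 and 0.235). All hearts were excised and perfused before sampling, and the part of that handling in these levels was not tested.

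Of 37 tested oxidative stress genes, 5 were higher at 48 weeks and none was lower, against 0.907% of all genes higher. There were 24 positive and 13 negative members, with a list median of 0.11. Of the 5, 4 were glutathione transferases (Gstm2, Gsta4, Mgst1 and Gsta1), which couple glutathione to electrophiles and lipid peroxidation products. Gstm2 lay at 12.29, 12.59 and 12.73 at 48 weeks, against 11.98, 12.18 and 12.26 at 8 weeks, and was 1.33-fold higher (0.41 ± 0.0761, adjusted p = 0.000928), and its second probe gave 0.46 (adjusted p = 0.0127). Gsta4, which clears 4-hydroxynonenal, gave 0.39 ± 0.0867 (adjusted p = 0.00708), and the membrane-bound Mgst1 gave 0.63 ± 0.144 (adjusted p = 0.00953). Aox1, aldehyde oxidase, was 1.74-fold higher without overlap (0.80 ± 0.14, adjusted p = 0.000346), although a dimmer probe gave 0.08 (adjusted p = 0.991). Gsta1 was detected in all 6 hearts at 48 weeks and in none at 8 weeks, so that it was at least 1.35-fold higher (adjusted p = 0.000124). Gsta2, not in the list but among the 20 largest increases, lay at 6.80, 6.97 and 7.22 at 48 weeks, against 5.26, 5.47 and 5.93 at 8 weeks, with 2 of the 8-week hearts detected (1.47 ± 0.176, adjusted p = 2.12e-07). Its dimmer probe gave 0.70 (adjusted p = 0.226). Nqo1, the quinone reductase often used as a readout of the antioxidant factor Nrf2, gave 0.41 (adjusted p = 0.0714).

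Gsta1 and Gsta2 are close copies on chromosome 9, and their promoters are shown because the pair moved together and because copies this alike may share a probe's signal. The windows are 300 bases around the RefSeq start (GRCm38.p6), Gsta1 at chr9:78230419-78230718 on the plus strand and Gsta2 at chr9:78347096-78347395 on the minus strand, each written 5′ to 3′ along its gene. Capitals mark the longest run that both windows hold, 29 bases.
Gsta1: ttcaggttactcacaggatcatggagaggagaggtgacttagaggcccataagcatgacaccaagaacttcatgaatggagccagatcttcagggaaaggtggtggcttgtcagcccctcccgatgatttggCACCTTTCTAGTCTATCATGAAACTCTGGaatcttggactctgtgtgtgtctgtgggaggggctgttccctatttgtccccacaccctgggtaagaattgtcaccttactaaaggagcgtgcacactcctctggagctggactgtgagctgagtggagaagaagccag
Gsta2: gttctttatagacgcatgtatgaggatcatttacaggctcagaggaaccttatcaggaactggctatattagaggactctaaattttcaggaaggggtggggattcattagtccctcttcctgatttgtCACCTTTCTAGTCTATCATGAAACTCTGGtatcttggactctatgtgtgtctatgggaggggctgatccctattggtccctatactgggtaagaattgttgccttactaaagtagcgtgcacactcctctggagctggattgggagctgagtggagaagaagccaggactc
Aligned end to end, 76.4% of 313 columns were identical. The core of the antioxidant response element, TGACNNNGC, was searched on both strands. Among the 4 called oxidative stress genes with a window in the RefSeq table (Gsta1, Aox1, Gstm2 and Mgst1) only that of Mgst1 holds it, against 12.5% of 27025 windows of all genes. Bases outside these windows were not searched, so a gene whose window lacks the core may still carry it elsewhere.

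Other increases touched the contractile apparatus, calcium signalling and secreted inhibitors. Cib3, a calcium-binding protein, was 2.47-fold higher (1.31 ± 0.228, adjusted p = 0.00034). Myot, the Z disc protein myotilin, was 2.44-fold higher (1.29 ± 0.293, adjusted p = 0.00878), with 48-week hearts between 6.87 and 8.13 and 8-week hearts between 5.63 and 6.53. Camk2b, a chain of the calcium/calmodulin-dependent kinase II, lay at 8.33, 8.41 and 8.57 at 48 weeks, against 7.08, 7.31 and 7.79 at 8 weeks. It was 2.14-fold higher (1.09 ± 0.18, adjusted p = 0.000122). Serpina3n, an acute phase protease inhibitor, gave 1.11 ± 0.296 (adjusted p = 0.036), and its call was lost in 8 of 12 fits that left out 1 heart (highest adjusted p = 0.111, without replicate 3 of the 48-week hearts). Cyp2b10, a cytochrome P450 of xenobiotic metabolism, gave 1.07 ± 0.207 (adjusted p = 0.00141), with 1 of the 8-week hearts detected and the groups overlapping. Its log2 fold change lay between 0.33 and 1.31 under the other settings. BC048679, which carries no assigned role, was detected in all 6 hearts of 48 weeks and in none of 8 weeks, and was at least 1.88-fold higher (adjusted p = 6.14e-06).

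The largest decrease was in a potassium channel subunit. Kcne1, the accessory subunit that slows the delayed rectifier channel Kcnq1, lay at 5.92, 6.81 and 7.18 at 48 weeks, against 8.43, 8.84 and 9.43 at 8 weeks. Every 48-week heart was more than 1 log2 unit below every 8-week heart, and Kcne1 was 4.63-fold lower (−2.21 ± 0.276, adjusted p = 5.75e-07). A dimmer probe gave −0.33 (adjusted p = 0.401). Kcnq1, the pore of the same channel, lay at 9.32, 9.46 and 9.56 at 48 weeks, against a lowest heart of 9.70 and a median of 9.84 at 8 weeks. Its decrease was small but without overlap (−0.40 ± 0.101, adjusted p = 0.0214), and its second probe gave −0.45 (adjusted p = 0.0183). The call of Kcnq1 was lost without replicate 5 of the 8-week hearts (adjusted p = 0.0657), and without replicate 1 (0.0667) or replicate 3 (0.0623) of the 48-week hearts. These were the called genes among 19 tested potassium channel genes, whose median was −0.07.

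Of 12 tested sodium, calcium, pacemaker and gap junction genes, 1 was higher and 1 lower (list median 0.05). Hcn2, a pacemaker channel, gave −0.55 ± 0.13 (adjusted p = 0.0109), and lost its call without replicate 5 of the 8-week hearts (adjusted p = 0.0506) or replicate 4 of the 48-week hearts (adjusted p = 0.0578). Cacnb2, the β subunit that brings the cardiac calcium channel to the membrane, gave 0.54 ± 0.125 (adjusted p = 0.00975). A second Cacnb2 probe gave −0.03 (adjusted p = 0.999), and the call was lost without replicate 5 of the 48-week hearts (adjusted p = 0.0529). Ddc, the decarboxylase that makes dopamine and serotonin, was not detected in any 48-week heart and in all 6 at 8 weeks, where it lay between 6.54 and 7.18. It was at least 2.36-fold lower (adjusted p = 1.51e-09), and its second probe gave −1.30 (adjusted p = 3.5e-06). Maob, which oxidises dopamine and other amines, was 1.42-fold higher without overlap (0.51 ± 0.0839, adjusted p = 0.000122). Ddc and Maob were the called members of 24 tested genes of calcium handling and adrenergic signalling, and Atp2a2, the calcium pump of the sarcoplasmic reticulum, gave 0.15 (adjusted p = 0.542).

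Collagen genes were lower at 48 weeks. Of 16 tested collagens 5 fell and none rose, against 0.744% of all genes lower. A negative log2 fold change was seen in 15, and the list median was −0.43. Over the other settings, each scaling included, that median lay between −0.51 and −0.23. The summed level of the 16 was 10028 to 14341 intensity units at 48 weeks and 15448 to 20861 at 8 weeks, without overlap. As a sum of linear intensities it is weighted to bright genes such as Col4a1 and Col4a2. Their mean log2 intensities at 8 weeks were 12.24 and 12.89. Col1a1, a chain of the fibrillar type I collagen, lay at 7.73, 8.09 and 8.39 at 48 weeks, against 8.94, 9.17 and 9.40 at 8 weeks, and was 2.14-fold lower (−1.10 ± 0.207, adjusted p = 0.0011). Col6a1, a chain of the microfibrillar type VI collagen, was 1.53-fold lower (−0.61 ± 0.119, adjusted p = 0.00153), and its second probe gave −0.63 (adjusted p = 0.000267). Col18a1, the basement membrane collagen that is cleaved to endostatin, gave −0.61 ± 0.156 (adjusted p = 0.0233), and lost its call in 6 of 12 fits that left out 1 heart (highest adjusted p = 0.0684, without replicate 2 of the 8-week hearts). Col3a1, the other main fibrillar chain, gave −0.62 (adjusted p = 0.336). In bulk tissue, fewer cells of a type and less RNA per cell cannot be told apart.

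Col4a1 and Col4a2 encode the chains of the type IV collagen of basement membranes and were both lower. Col4a1 lay at 11.17, 11.54 and 11.80 at 48 weeks, against 11.86, 12.27 and 12.51 at 8 weeks (−0.70 ± 0.16, 1.62-fold lower, adjusted p = 0.00953). Col4a2 lay at 11.95, 12.19 and 12.57 at 48 weeks, against 12.72, 12.88 and 13.10 at 8 weeks (−0.67 ± 0.142, adjusted p = 0.00393). Neither overlapped between the groups, and the sizes were close. These genes are known to lie head to head and to share a promoter, which is why their start regions are printed here. The RefSeq windows (GRCm38.p6, 300 bases each) are chr8:11312777-11313076 on the minus strand for Col4a1 and chr8:11312555-11312854 on the plus strand for Col4a2, each 5′ to 3′ along its gene. Capitals mark the 78 bases that the windows share, read on opposite strands.
Col4a1: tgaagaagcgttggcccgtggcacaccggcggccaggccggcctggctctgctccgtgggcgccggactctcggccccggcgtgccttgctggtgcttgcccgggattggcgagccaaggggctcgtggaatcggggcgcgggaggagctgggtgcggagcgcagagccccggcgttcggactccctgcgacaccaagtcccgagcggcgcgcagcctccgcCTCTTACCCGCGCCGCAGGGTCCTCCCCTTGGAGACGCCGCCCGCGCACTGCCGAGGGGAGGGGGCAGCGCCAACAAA
Col4a2: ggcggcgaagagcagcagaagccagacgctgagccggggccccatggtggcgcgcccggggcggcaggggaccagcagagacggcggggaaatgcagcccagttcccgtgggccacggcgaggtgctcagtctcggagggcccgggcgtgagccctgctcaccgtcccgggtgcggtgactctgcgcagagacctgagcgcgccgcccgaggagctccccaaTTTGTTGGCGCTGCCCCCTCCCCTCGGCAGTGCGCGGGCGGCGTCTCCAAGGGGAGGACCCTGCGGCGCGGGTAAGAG
Over the RefSeq table, 10.3% of 27025 windows overlap one of another gene on the opposite strand, and 11 of the 117 called genes with a window do.

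Elastic and basement membrane proteins were lower in part. Of 32 tested members 4 fell and none rose, against 0.744% of all genes lower, with a median of −0.12. Eln, which encodes elastin of the vessel wall, lay at 5.89, 6.47 and 6.76 at 48 weeks, against 7.11, 7.45 and 7.58 at 8 weeks, and was 1.97-fold lower (−0.98 ± 0.239, adjusted p = 0.0173). Its call was lost without replicate 6 of the 48-week hearts (adjusted p = 0.0612). Sparc, which binds collagen and helps its deposition, gave −0.69 ± 0.146 (adjusted p = 0.00397), but an adjusted p of 0.143 without background correction and 0.255 in the authors' processed values. Vtn, the adhesion protein vitronectin, gave −0.52 ± 0.116 (adjusted p = 0.0073), and 0.0686 with the 12 arrays normalized and fitted alone. Lamc1, the γ1 chain of laminins, gave −0.40 ± 0.0947 (adjusted p = 0.0115), and lost its call without replicate 4 of the 48-week hearts (adjusted p = 0.0576).

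Enzymes that build and cut the matrix gave fewer calls. Plod1, a lysyl hydroxylase that prepares collagen for crosslinking, was the only called gene of 16 tested processing enzymes (list median −0.18). Plod1 lay at 7.93, 8.38 and 8.60 at 48 weeks, against 8.70, 8.80 and 8.87 at 8 weeks (−0.46 ± 0.112, adjusted p = 0.0157), and its adjusted p was 0.0872 without replicate 3 of the 48-week hearts. Of 24 tested matrix proteases and inhibitors 3 fell and none rose, against 0.744% of all genes lower (list median 0.05). Mmp2, a gelatinase of fibroblasts, lay at 10.30, 10.56 and 10.75 at 48 weeks, against 10.94, 11.08 and 11.16 at 8 weeks (−0.49 ± 0.11, adjusted p = 0.00708, and 0.0591 with median centring over all probes). Adamts12, a metalloprotease detected in 1 heart at 48 weeks and in all 6 at 8 weeks, gave −0.80 ± 0.187 (adjusted p = 0.0109). A second Adamts12 probe gave 0.07 (adjusted p = 0.961), and the call was lost without replicate 1 of the 8-week hearts (adjusted p = 0.0503). Htra1, a secreted serine protease, gave −0.34 ± 0.0838 (adjusted p = 0.02), with 0.0629 without replicate 5 of the 8-week hearts and 0.0699 without replicate 3 of the 48-week hearts.

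**Figure D3:**
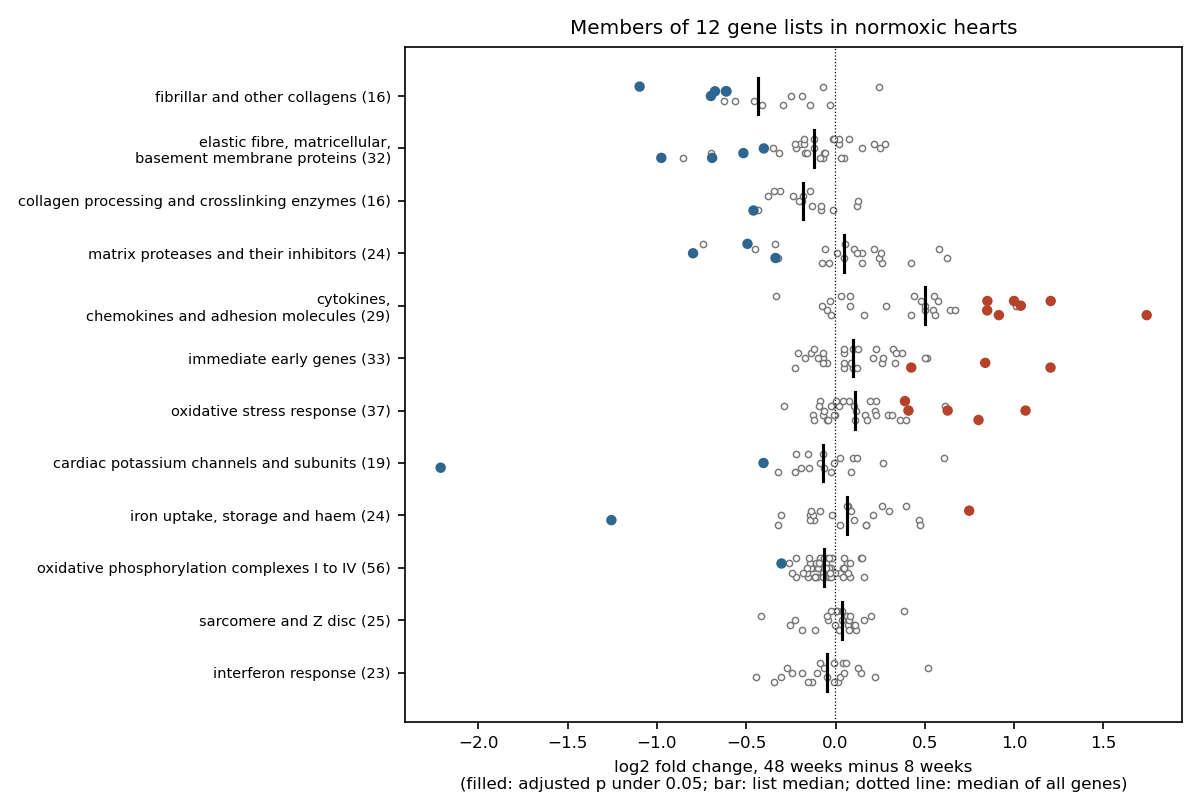
Log2 fold change (48 weeks minus 8 weeks, normoxic hearts) of every tested member of 12 gene lists, with the number tested in brackets, filled where the adjusted p was under 0.05. Of 16 collagens 15 lie below 0 (list median −0.43), and of 29 cytokines, chemokines and adhesion molecules 24 lie above 0 (0.50), while the sarcomere genes scatter around the median of all genes (0.04).

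Iron genes moved in both directions. Tfrc, the receptor that takes up transferrin-bound iron, lay at 8.95, 9.52 and 10.37 at 48 weeks, against 10.32, 10.83 and 11.17 at 8 weeks. It was 2.39-fold lower (−1.25 ± 0.277, adjusted p = 0.00646), and 1 heart of 48 weeks overlapped with the young group. Slc40a1, ferroportin, the exporter of iron, was 1.68-fold higher (0.75 ± 0.162, adjusted p = 0.00506), with hearts between 9.50 and 10.39 at 48 weeks and between 9.12 and 9.56 at 8 weeks. The list median of 24 tested iron and haem genes was 0.07, and Hmox1, haem oxygenase 1, gave 0.47 (adjusted p = 0.460).

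Several decreases concerned muscle isoforms, receptors and growth factors. Tnni2, which encodes the fast skeletal form of troponin I, lay at 5.56, 6.05 and 6.77 at 48 weeks, against 7.19, 7.38 and 7.65 at 8 weeks, and was 2.49-fold lower (−1.31 ± 0.179, adjusted p = 3.78e-06). Ramp1, the subunit that gives the calcitonin-like receptor its affinity for the vasodilator CGRP, was 2.05-fold lower (−1.03 ± 0.223, adjusted p = 0.00497), with hearts between 6.70 and 7.66 at 48 weeks and between 8.03 and 8.50 at 8 weeks. Vegfd, a growth factor of lymphatic vessels, was 1.72-fold higher without overlap (0.78 ± 0.164, adjusted p = 0.00397). Grb10, an adaptor that dampens insulin and IGF receptors, gave −0.36 ± 0.0784 (adjusted p = 0.00642), and its second probe gave −0.32 (adjusted p = 0.681). The Grb10 call was lost with the mean of its probes (adjusted p = 0.124) and with median centring over all probes (adjusted p = 0.153). Igf2, a growth factor high before birth, gave −0.43 ± 0.115 (adjusted p = 0.0375), and lost its call in 10 of 12 fits that left out 1 heart (highest adjusted p = 0.112, without replicate 6 of the 48-week hearts). Id3, an inhibitor of helix-loop-helix factors downstream of BMP, gave 0.48 ± 0.114 (adjusted p = 0.0121), and 0.0575 without replicate 4 of the 48-week hearts. The lists of insulin and IGF signalling (26 tested), TGF-β, BMP and Wnt signalling (32 tested) and vascular factors (32 tested) had medians of −0.02, −0.01 and 0.02.

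The remaining genes among the 20 largest decreases were of varied function. Entpd4, a nucleotide diphosphatase of the Golgi and lysosome, had hearts between 11.29 and 11.59 at 48 weeks and between 12.01 and 12.31 at 8 weeks (−0.77 ± 0.107, adjusted p = 5.36e-06). Kit, the stem cell factor receptor that also marks mast cells, gave −0.72 ± 0.191 (adjusted p = 0.0339), and lost its call in 7 of 12 fits that left out 1 heart (highest adjusted p = 0.148, without replicate 3 of the 48-week hearts). Scd2, a stearoyl-CoA desaturase, gave −0.71 ± 0.169 (adjusted p = 0.0125), and 0.0616 without replicate 2 of the 48-week hearts. The other called genes were Rps6kl1 (−0.75), Whrn (−0.70), Wfdc1 (−0.65), Lpar4 (−0.63), a receptor for lysophosphatidic acid, Nrep (−0.62) and Tlcd2 (−0.62, with −0.16 in a dimmer probe, adjusted p = 0.875).

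Most of the machinery of the working myocardium did not pass the test. No member was called among 25 sarcomere and Z disc genes of the list (median 0.04, 2 at an unadjusted p under 0.05) or 22 genes of hypertrophy and the fetal programme (median 0.05, 0 unadjusted), where Nppb, the natriuretic peptide BNP, gave −0.24 (adjusted p = 0.756). Myoz2, a Z disc protein, gave −0.26 (adjusted p = 0.0946) with −0.24 in its second probe. No member was called either in the tricarboxylic acid cycle (20 tested, median −0.03, 3 unadjusted), ATP synthase (15 tested, median −0.03, 0 unadjusted) and glycolysis (23 tested, median −0.00, 2 unadjusted). Gys1, the glycogen synthase of muscle, gave −0.40 (adjusted p = 0.0739), and Idh3b, a subunit of isocitrate dehydrogenase, gave −0.28 (adjusted p = 0.138). Of 56 oxidative phosphorylation genes 1 fell, Cyc1, the cytochrome c1 of complex III, with hearts between 13.11 and 13.23 at 48 weeks and between 13.37 and 13.62 at 8 weeks (−0.31 ± 0.0687, adjusted p = 0.0073). The list median was −0.06 with 43 of 56 members negative, and the Cyc1 call was lost with median centring (adjusted p = 0.097). Of 33 proteasome and muscle ubiquitin ligase genes only Trim54, a RING finger protein of the sarcomere, was called (0.37 ± 0.101, adjusted p = 0.0449), and that call was lost in 8 of 12 fits that left out 1 heart (highest adjusted p = 0.121, without replicate 1 of the 48-week hearts).

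Lists often linked to ageing also gave no call. These were 23 interferon response genes (median −0.05, 4 at an unadjusted p under 0.05), 17 antigen presentation genes (median −0.02, 0 unadjusted), 19 p53 targets and senescence genes (median 0.07, 6 unadjusted) and 21 cell cycle genes (median 0.03, 2 unadjusted). Heat shock and unfolded protein response genes (35 tested, median −0.02, 3 unadjusted), autophagy and lysosome genes (32 tested, median 0.00, 2 unadjusted), cytosolic ribosomal proteins (37 tested, median 0.03, 1 unadjusted) and clock genes (16 tested, median 0.13, 1 unadjusted) were likewise without a called member. Igfbp7, a secreted protein of senescent cells, gave −0.30 (adjusted p = 0.176), Rsad2, an antiviral protein induced by interferon, gave −0.45 (adjusted p = 0.103), and Cry2, a repressor of the clock, gave 0.47 (adjusted p = 0.355). Tap1, the transporter that feeds peptides to class I molecules, gave 0.29 (adjusted p = 0.638), Gaa, the lysosomal enzyme that degrades glycogen, gave 0.23 (adjusted p = 0.146), and Trib3, a pseudokinase of the unfolded protein response, gave −0.38 (adjusted p = 0.392). The complement and coagulation list (16 tested, median 0.04) held Serpina3n as its called member, and the sterol and fatty acid synthesis list (19 tested, median −0.01) held Scd2.

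Cell type markers were counted to see whether the tissue make-up moved with age. All 12 cardiomyocyte markers were detected, none was called and the median was 0.07. Their detection was not a test of the label of left ventricle. Their summed level was 341265 to 358057 at 48 weeks and 315250 to 358016 at 8 weeks. Of 13 fibroblast markers 2 were lower (Col1a1 and Mmp2), 5 were positive and 8 negative, the median was −0.14, and the summed level was 17586 to 20218 at 48 weeks and 18131 to 22644 at 8 weeks. None of 14 endothelial markers was called (median −0.16, summed level 20111 to 23788 at 48 weeks and 21782 to 27170 at 8 weeks), though Tie1, an endothelial receptor, lay lower in every 48-week heart (−0.47, adjusted p = 0.0714). None of 12 smooth muscle and pericyte markers was called (median −0.02, summed level 10602 to 12965 at 48 weeks and 11982 to 14456 at 8 weeks). Adipocyte markers had a median of 0.13, and their summed level was 1749 to 2148 at 48 weeks and 1438 to 1643 at 8 weeks, without overlap and with no member called. This linear sum is mostly the signal of 1 bright member, Cidea. Its mean log2 intensity was 10.53 at 48 weeks and 10.23 at 8 weeks, so the sum does not show that adipocyte content rose. Atrial markers, which would show tissue from above the valves, had a summed level of 4459 to 25519 at 48 weeks and 8541 to 15206 at 8 weeks (median −0.23, 0 of 6 called). Of 6 detected skeletal muscle markers, Tnni2 and Ckm were lower, and Ckm, the creatine kinase that cardiomyocytes also make, lost its call in 9 of 12 fits that left out 1 heart (highest adjusted p = 0.12, without replicate 1 of the 8-week hearts). Of 6 mast cell markers Kit was lower, while Cma1 and Tpsb2, the proteases of mast cell granules, gave −0.16 and 0.14 (adjusted p = 0.922 and 0.884). The part of any shift in cell types in the matrix and inflammatory genes was not tested.

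Hearts of intermediate age gave the levels in between, which share the 8-week hearts as their baseline. In order of age (8, 16, 32 and 48 weeks), Cds1 had group means of 6.64, 7.32, 8.19 and 8.47. Ccl11 had 6.69, 7.43, 8.12 and 8.43 at these ages. At 16 weeks neither was past the threshold against 8 weeks (limma adjusted p = 0.0795 for Cds1 and 0.419 for Ccl11). Rab4a had 6.62, 6.95, 8.28 and 8.41, and Wdfy1 had 5.97, 6.09, 7.73 and 7.45, with the larger step between 16 and 32 weeks. Entpd4 showed the same interval in the other direction, at 12.14, 12.19, 11.30 and 11.37. Kcne1 had 8.87, 7.52, 6.88 and 6.66, and Tfrc had 10.82, 9.94, 9.59 and 9.56, with the larger step of the means before 16 weeks (adjusted p at 16 weeks = 0.0396 for Kcne1 and 0.419 for Tfrc). Arc, at 8.82, 9.09, 9.38 and 10.03, and Il6, at 6.20, 6.37, 6.64 and 7.41, were highest at 48 weeks, as were Egr2, at 7.78, 7.73, 7.77 and 8.62, and Nfkbia, at 6.26, 6.21, 6.31 and 6.87. Col1a1 had 9.17, 8.65, 8.25 and 8.07. No test of the shape of these courses was made.

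**Figure D4:**
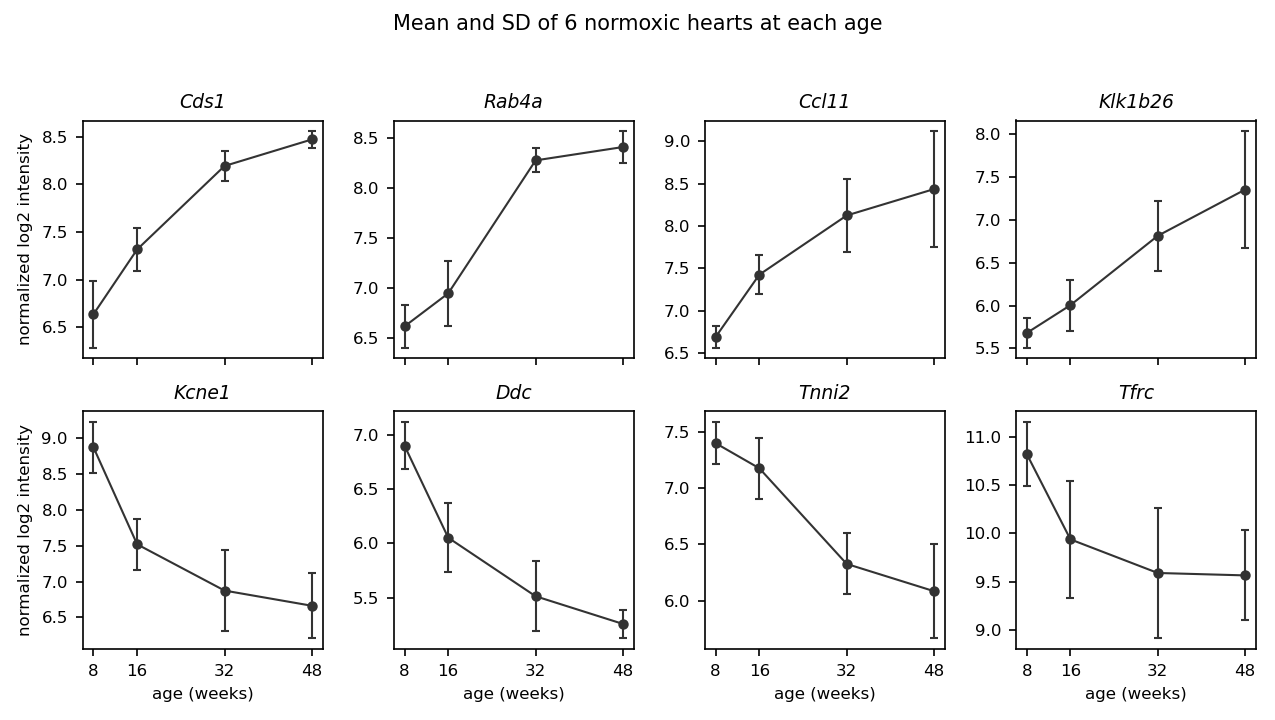
Mean normalized log2 intensity (points) and SD (bars) of 6 normoxic hearts at 8, 16, 32 and 48 weeks, for the 4 largest increases (top) and the 4 largest decreases (bottom), with age in weeks on the horizontal axis. Cds1 runs through 6.64, 7.32, 8.19 and 8.47, and Kcne1 through 8.87, 7.52, 6.88 and 6.66.

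The I/R hearts gave a look at the same ages in other animals, though not an independent one. All 48 arrays were normalized together, and the I/R arrays also helped to set the variance behind each normoxic p. Between 48 and 8 weeks 3859 of 9811 genes were past the threshold in I/R hearts (39.3%), 1831 higher (18.7%) and 2028 lower (20.7%). The balance depended on the scaling. With median centring over detected probes 2225 were higher and 1548 lower, and with median centring over all probes 510 were higher and 3247 lower. The arrays moved with age too. RIN was 7.60 ± 0.11 at 48 weeks and 8.08 ± 0.147 at 8 weeks (SD, n = 6 each, two-sided exact permutation p = 0.00216, the smallest possible), and the mean number of detected probes was 11803 at 48 weeks and 13259 at 8 weeks (two-sided exact permutation p = 0.00216). The part of RNA quality in this larger count was not tested beyond a fit with RIN as a covariate, which called 3172 genes. Of the 162 genes called in normoxic hearts, 126 had the same sign in I/R hearts. Past the threshold in the same direction were 53 of the 89 higher genes, against 18.7% of all genes, and 41 of the 73 lower genes, against 20.7%. Both of these shares of all genes move with the scaling. The calls in normoxic and in I/R hearts rest on the same variances, so these counts are no independent replication. In the opposite direction 12 were called, and 56 were not called. Among the 20 largest increases 18 were called in I/R hearts in the same direction, and among the 20 largest decreases 16 were.

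The leading genes were past the threshold in both sets of hearts. Cds1 gave a log2 fold change of 1.83 in normoxic hearts and 1.59 in I/R hearts, Rab4a gave 1.79 and 1.35, and Amy2a5 gave 1.63 and 1.94. Kcne1 gave −2.21 in normoxic hearts and −1.72 in I/R hearts, Ddc −1.64 and −1.45, Tnni2 −1.31 and −1.47, and Col1a1 −1.10 and −1.64. For these 7 genes the test of the difference did not pass (adjusted p between 0.192 and 0.711), which does not show that the sizes were equal. Of 16 collagens 10 were lower and 1 higher in I/R hearts, and of the oxidative stress genes 14 of 37 were higher and 7 lower. Of all genes 18.7% were higher and 20.7% lower in I/R hearts, and these shares move with the scaling.

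The age difference itself depended on treatment for 2103 of all genes (21.4%) and for 52 of the 162. With each array centred on the median of all its probes, the median over all genes was −0.181 in the I/R comparison and 0.236 in this difference, and 2273 genes were then higher and 178 lower, against 1094 and 1009. In Arc the normoxic hearts rose by 1.20 and the I/R hearts gave −0.33 (adjusted p = 0.322), a difference of 1.53 (adjusted p = 0.00163). Serpina3n gave 1.11 in normoxic hearts and 2.31 in I/R hearts (difference −1.20, adjusted p = 0.0352). Col4a1 gave −0.70 in normoxic and −1.31 in I/R hearts (difference 0.61, adjusted p = 0.0485), while Col4a2 gave −0.67 and −0.42 (difference −0.26, adjusted p = 0.391). Kcnq1 gave −0.40 in normoxic hearts and 0.09 in I/R hearts (difference −0.50, adjusted p = 0.0101). The 10 genes with the smallest p for this difference were all among the genes not called for age in normoxic hearts. Their age differences were larger in I/R hearts, where RIN and the number of detected probes also moved with age. Cox4i2, a subunit isoform of cytochrome c oxidase, gave −0.00 in normoxic hearts and −2.13 in I/R hearts (adjusted p of the difference 1.05e-11). Tle5, a transcriptional corepressor, gave 0.00 and −1.35 (3.16e-12), and Decr1, a reductase of unsaturated fatty acid oxidation, gave 0.19 and 1.64 (1.03e-10).

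**Figure D5:**
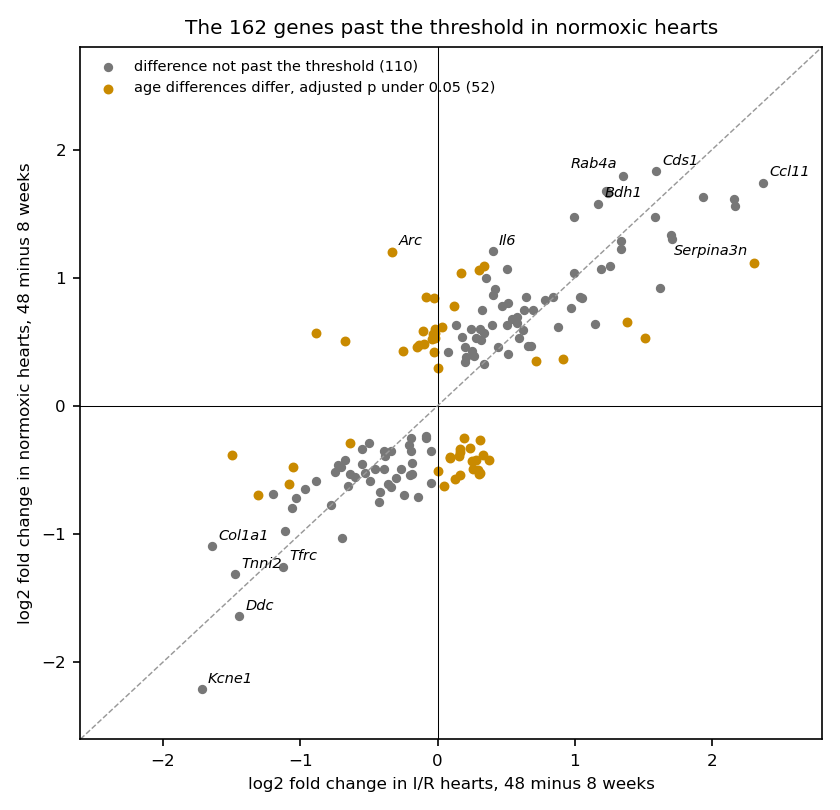
Each point is 1 of the 162 genes called in normoxic hearts, with its log2 fold change (48 weeks minus 8 weeks) in I/R hearts on the horizontal axis and in normoxic hearts on the vertical axis, coloured where the difference of both was past the threshold (52 genes). Of the 162 points 126 lie in the quadrants of equal sign, and the dashed line marks equal change.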

How the data were processed

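Left ventricular RNA of 48 hearts was hybridised to Illumina mouse bead arrays, and groups were taken from the sample titles. The authors deposited probe signals as linear intensity with no normalization, per the file name, beside a fraction headed as a detection p-value. That deposited fraction rises with the signal and was therefore read as 1 minus the detection p. The series also holds the authors' processed values near the log2 scale, made with lumi per the submitters' processing notes, whose exact transform is not given in the sources used here. All 48 of their columns were closest to their own array.

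Intensities were background corrected by normexp from the detection values (offset 16), quantile normalized and put on the log2 scale (limma 3.58.1, R 4.3.3). Of 46624 probes, 17624 were detected (p under 0.05 on at least 6 arrays). Symbols came from the platform table, updated through RefSeq. The brightest probe stood for each of 9811 genes. Linear models with 8 group means over 48 arrays gave moderated tests (eBayes), with p-values adjusted by Benjamini-Hochberg over all genes, and the script was tested on simulated data. The number of arrays limits precision.

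A probe undetected in all hearts of a group is given as a bound ("at least"), against the lowest signal among detected probes on each array. Where nothing says otherwise, replicates are separate hearts. Replicate numbers are shared between groups but mark different animals.

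Named genes were the 20 largest changes in each direction detected in all hearts of a group, up to 6 called members of each list (or the member with the smallest p), and the 10 strongest dependences on I/R. Members of the comparison and the lists were chosen with earlier results of these data known. Other uncalled genes, among them Cds2, Rab5a, Rab7, Cpt1b, Cela2a, Cel, Fos, Junb, Nqo1, Atp2a2, Col3a1, Hmox1, Nppb, Cma1 and Tpsb2, were picked as familiar after their values were seen. Alternatives changed the normalization, background, filter, probe rule, arrays, weights, RIN and block, and left out each heart.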

Additional observations from a re-analysis of the deposited data

Results flagged for a closer look

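In 16 cases 1 heart stood apart from the other 5 of its group in a named gene, by a gap that chance gives in about 1 in 20 groups. Each of the 105 named genes was looked at in both groups, so many such cases are expected by chance alone. At 48 weeks, replicate 2 was low in Cds1 (8.303, next heart 8.456) and Sh3gl2 (7.044, next 7.978) and high in Tle5 (11.23, next 11.04). Replicate 3 of that age was low in Wdfy1 (6.327, next 7.416) and high in Entpd4 (11.59, next 11.35). Replicate 5 was high in Cenpa (11.44, next 11.19) and Cidea (10.73, next 10.54), and replicate 6 was low in Ccl7 (11.1, next 11.76). Replicate 1 had 15.52 in Myl2 (next 15.73), where 4 of the others share the top value of the normalized scale, 15.79, so that this gap is set by ties at the ceiling.

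At 8 weeks, replicate 6 was high in Egr1 (13.43, next 13.05), Cry2 (8.594, next 7.966) and Gys1 (9.976, next 9.578), and low in Fcgr3 (6.271, next 7.577). Replicate 4 was low in Il6 (5.47, next 6.214) and Atp5g3 (14.64, next 15.33), and replicate 5 was high in Cenpa (11.27, next 10.97).

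For 26 of the 105 named genes the log2 age difference of normoxic hearts differed from that of I/R hearts (limma test of the difference). Over all genes 21.4% passed this test. Of the 26, the 10 given last were named for their smallest p in it, so that their passing was fixed in advance. Differences are given here as normoxic minus I/R. Positive differences were found for Arc (1.532), Nfkbia (1.226), Egr2 (0.8602), Egr1 (0.4494), Id3 (0.5805), Col4a1 (0.6086), Col6a1 (0.4714), Tie1 (0.7714) and Ckm (0.3529). Negative ones were found for Serpina3n (−1.196), Igf2 (−0.7073), Tlcd2 (−0.6734), Trim54 (−0.5482), Kcnq1 (−0.4957), Lamc1 (−0.4953) and Kcnj8 (−0.4842). Their adjusted p lay between 0.000837 (Nfkbia) and 0.0485 (Col4a1).

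The 10 strongest differences were positive for Lbh (2.555), Cox4i2 (2.125), Man1b1 (1.736), Selenow (1.371) and Tle5 (1.352), and negative for Decr1 (−1.457), Vamp2 (−1.356), Tmem214 (−1.197), Pgls (−1.114) and Pcbp4 (−0.9568). Their adjusted p lay between 3.16e-12 (Tle5) and 6.66e-09 (Vamp2). The I/R hearts of 48 weeks also had lower RIN and fewer detected probes than those of 8 weeks, and with RIN as a covariate 1962 genes had a difference past the threshold, against 2103. The part of the number of detected probes was not tested.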

How the results depend on the processing

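The count of 162 genes lay between 133 and 206 under the other settings except with array weights, which called 358 (187 higher, 171 lower). Of the 162 genes, 150 were shared with median centring, 154 with no background correction, 146 with the authors' processed values and 108 with the 12 arrays normalized and fitted alone. With 1 normoxic heart left out the count lay between 119 and 163. In I/R hearts, testing all probes singly called 5852 features, because more features were tested. The median centring over all probes was chosen after seeing the data.

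With the replicate number as a block the count was 156. The numbers did not pair the hearts: the correlations of same-numbered hearts lay between −0.126 and 0.131, and 1 of 6 correlated best with its own number.

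Several named genes lost their call under single settings. With median centring over all probes these were Scd2, Col18a1, Lamc1, Plod1, Htra1, Egr1, Kcnq1, Cacnb2, Hcn2, Cyc1, Igf2, Ckm, Mmp2 and Grb10 (adjusted p up to 0.476, Ckm). With the 12 arrays fitted alone they were Kit, Lamc1, Egr1, Cacnb2, Hcn2, Cyc1, Trim54, Id3, Ckm, Mgst1 and Vtn (up to 0.189, Ckm). With the mean of all probes they were Vcam1, Cacnb2, Aox1, Tlcd2 and Grb10 (up to 0.238, Cacnb2), and with RIN as a covariate Kit, Col18a1, Ccl7, Egr1, Kcnq1, Trim54 and Igf2 (up to 0.122, Trim54). With the replicate block they were Kit, Egr1 and Trim54 (up to 0.0581, Egr1). Without a filter on dim probes they were Ccl7, Ckm, Egr1, Igf2, Kit, Serpina3n and Trim54, with median centring over detected probes Ckm, Cyc1 and Trim54, and with all probes singly Ccl7, Ckm, Egr1, Igf2 and Trim54. In the authors' values they were Egr2, Il6, Serpina3n and Sparc, without background correction Il6, Serpina3n and Sparc, and with normoxic arrays alone Ckm.

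Uncalled markers of scarce cells changed sign. Blnk gave 0.0598 with RIN as a covariate, and with 1 heart left out lay between −0.14 and 0.0091, Hba-a1 between −0.34 and 0.071, Camp between −0.079 and 0.13 and Cd8b1 between −0.11 and 0.016. The cause was not tested. Signal near background limits genes detected in few hearts, and no slide or date was used here as a batch.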

Other observations

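Among the called genes outside the naming rule, several are best known from neurons, and these were picked after their values were seen. Sncg, γ-synuclein, lay between 8.46 and 8.75 at 48 weeks and between 7.51 and 8.13 at 8 weeks (log2 fold change 0.84 ± 0.118, SE, limma adjusted p = 5.36e-06). Slc17a7, a vesicular glutamate transporter, gave 1.03 ± 0.203 (adjusted p = 0.00157), and Amph, amphiphysin, gave 0.75 ± 0.196 (adjusted p = 0.0293). Nrxn2, a presynaptic adhesion protein, gave 0.58 ± 0.148 (adjusted p = 0.0218), with 5 hearts detected at 48 weeks and 1 at 8 weeks. None of the 4 detected Schwann cell and neuron markers was called (median 0.01). In I/R hearts Sncg gave 1.06 (adjusted p = 1.44e-09), while Slc17a7 gave 0.17 (adjusted p = 0.532).

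The phospholipid scramblases Plscr1 and Plscr2, close copies that a probe may not tell apart, gave 0.56 ± 0.126 (adjusted p = 0.0073) and 0.46 ± 0.116 (adjusted p = 0.0218) in normoxic hearts, against −0.03 and −0.15 in I/R hearts. Stab1, a scavenger receptor of macrophages and sinusoidal endothelium, gave −0.53 ± 0.102 in normoxic hearts (adjusted p = 0.00141) and 0.31 in I/R hearts (adjusted p = 0.0152). Coq6, an enzyme of coenzyme Q synthesis, gave −0.26 ± 0.0695 in normoxic hearts (adjusted p = 0.0324) and 0.31 in I/R hearts (adjusted p = 0.00034). The difference between normoxic and I/R hearts was past the threshold for Stab1 (adjusted p = 3.66e-05) and Coq6 (adjusted p = 3.04e-05).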
